A study of Mus musculus with 10 samples.

Results

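Narrow regions of the repressive histone mark H3K27me3 at the promoters of protein-coding genes that are poor in CpG dinucleotides were examined in hematopoietic stem cells of the long-term repopulating kind (LT-HSCs). The cells were sorted as LSK CD48-CD150+ from the liver of E14.5 mouse embryos, and the mark was profiled by CUT&Tag, in which a transposase tethered to the antibody releases the DNA around the mark. There were 3 libraries of IκBα wild-type (WT) embryos and 3 of IκBα knockout (KO) embryos, which lack the NF-κB inhibitor encoded by Nfkbia in every cell through a germline targeted allele. The series holds 10 samples, and the other 4 were not analysed here. Replicates 1 and 2 of each genotype were sequenced with 75 bp reads and replicate 3 with 50 bp reads. No treatment was given, and the labels do not say from which embryos a library came. The study calls the replicates independent and, for this assay, names several embryos of each genotype in fewer experiments than there are libraries of a genotype, so some libraries may share an experiment. The p-values measure the spread between these libraries, which may be technical in part.

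The regions were chosen by measured values. Peaks of WT replicates 1 and 2 and KO replicates 1 and 2 were merged where they overlapped by at least 1 bp, which gave 6929 merged stretches on all chromosomes. Of these, 4609 on the nuclear chromosomes had peaks of 2 or more of the 4 libraries. A region was kept when it was narrower than 12000 bp and overlapped a coding promoter, taken as 5000 bp upstream to 100 bp downstream of a transcription start site (TSS). It was then set apart as CpG-poor when no such gene had a TSS whose 500 bp flanks reached both a GC fraction of 0.55 and an observed/expected CpG ratio of 0.65. There were 1006 such regions, of 4609, at the promoters of 1016 genes. Another 1556 narrow regions lay at CpG-rich coding promoters, 641 inside coding genes, 875 elsewhere, and 531 regions reached the width limit. Peak presence, width and the base composition at the TSS therefore describe the choice and are not findings.

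H3K27me3 is laid down by the Polycomb repressive complex PRC2 and is found at genes that are kept silent but can be switched on in another lineage or at a later stage. In mammalian cells PRC2 gathers mainly at CpG islands, stretches of unmethylated DNA rich in CpG that cover the promoters of many developmental regulators. Genes used in only a few tissues often start from CpG-poor DNA, where silencing usually involves DNA methylation or the lack of an activator. A Polycomb mark at such a promoter is thus less usual than at a CpG island.

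To show what the composition at these promoters looks like, sequences are given for members with the highest signal, 5′ to 3′ on the strand of the gene and with each CpG in capitals. Ncan encodes neurocan, a proteoglycan of the brain extracellular matrix. The 250 bases before its TSS (RefSeq promoter, GRCm38.p6, chr8:70120845-70121094, minus strand) held 6 CpG. A stretch of 250 bases in an exon of the same gene, 8853 bp from the TSS and inside the same region (chr8:70111896-70112145), held 29. Both are given to show that 1 region can join a CpG-poor start and a CpG-dense exon.

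Ncan before the TSS: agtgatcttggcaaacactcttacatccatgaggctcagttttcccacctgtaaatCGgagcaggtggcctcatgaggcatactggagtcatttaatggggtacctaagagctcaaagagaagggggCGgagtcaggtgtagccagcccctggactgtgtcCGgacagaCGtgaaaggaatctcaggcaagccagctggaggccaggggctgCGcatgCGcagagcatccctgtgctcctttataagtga

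Ncan exon: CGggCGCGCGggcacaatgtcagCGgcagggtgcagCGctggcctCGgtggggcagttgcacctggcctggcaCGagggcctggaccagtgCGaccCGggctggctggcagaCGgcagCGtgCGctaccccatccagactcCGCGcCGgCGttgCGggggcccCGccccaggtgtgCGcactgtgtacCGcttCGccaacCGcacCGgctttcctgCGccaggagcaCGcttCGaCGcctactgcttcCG

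The region at Ndufa4l2 and Stac3 held its densest stretch between the genes, 3158 bp from the TSS of Ndufa4l2 (chr10:127511685-127511934, plus strand), with 26 CpG in 250 bases. Ndufa4l2 encodes a mitochondrial protein and Stac3 a protein of muscle excitation. The region named after Gm20479 held its densest stretch in an exon of Sptbn4, which encodes a spectrin of axons (chr7:27364167-27364416, minus strand), with 33 CpG in 250 bases. These are the second and the third member by signal, and both sequences resemble islands.

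Ndufa4l2 and Stac3 stretch: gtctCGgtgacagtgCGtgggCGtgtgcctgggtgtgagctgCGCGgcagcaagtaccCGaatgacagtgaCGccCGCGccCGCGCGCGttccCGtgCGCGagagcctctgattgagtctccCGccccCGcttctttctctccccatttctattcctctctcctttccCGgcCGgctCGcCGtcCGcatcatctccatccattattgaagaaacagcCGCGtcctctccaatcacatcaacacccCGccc

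Sptbn4 exon: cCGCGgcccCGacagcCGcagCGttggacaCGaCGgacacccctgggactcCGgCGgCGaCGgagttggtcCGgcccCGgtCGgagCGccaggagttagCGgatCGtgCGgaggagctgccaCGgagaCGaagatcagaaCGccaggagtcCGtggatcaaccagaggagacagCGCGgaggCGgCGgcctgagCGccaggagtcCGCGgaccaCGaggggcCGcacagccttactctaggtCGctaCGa

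Pou5f1, Grip2 and Cd2 head the members that lack such a stretch. Pou5f1 encodes the pluripotency factor Oct4, Grip2 a scaffold of glutamate receptors, and Cd2 an adhesion receptor of T cells. The 250 bases before the TSS of Pou5f1 (chr17:35505782-35506031, plus strand) held 8 CpG, and those of Grip2 (chr6:91807394-91807643, minus strand) held 12. The 250 bases around the highest signal at Cd2, in an exon 372 bp from the TSS (chr3:101279892-101280141, minus strand), held 0 CpG.

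Pou5f1 before the TSS: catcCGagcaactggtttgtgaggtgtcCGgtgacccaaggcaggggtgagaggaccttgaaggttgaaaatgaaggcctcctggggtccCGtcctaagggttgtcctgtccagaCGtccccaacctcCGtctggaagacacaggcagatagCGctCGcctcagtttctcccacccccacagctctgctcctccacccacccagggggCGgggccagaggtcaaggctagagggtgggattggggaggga

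Grip2 before the TSS: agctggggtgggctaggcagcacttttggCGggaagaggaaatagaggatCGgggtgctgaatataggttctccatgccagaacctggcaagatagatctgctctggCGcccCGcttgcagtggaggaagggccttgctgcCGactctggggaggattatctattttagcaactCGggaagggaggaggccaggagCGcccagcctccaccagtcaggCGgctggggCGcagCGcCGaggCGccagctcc

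Cd2 maximum: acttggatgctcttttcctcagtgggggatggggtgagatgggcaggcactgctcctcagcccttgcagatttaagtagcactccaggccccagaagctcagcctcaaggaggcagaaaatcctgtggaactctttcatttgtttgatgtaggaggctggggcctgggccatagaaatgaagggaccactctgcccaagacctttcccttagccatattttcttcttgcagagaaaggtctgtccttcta

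The files give each peak a total signal, which adds up the fragment coverage of its bases, and a maximum signal, which is the highest coverage in it. Neither was scaled to library size. The 6 libraries held between 1047 and 6013 peaks, and the median maximum signal of a peak lay between 6 and 10 fragments, so single peaks rest on few molecules. The smallest peak of WT replicate 3 had a total signal of 3344, against 6616 to 7307 in the other 5 libraries. Totals are given as deposited, and a level is compared between replicate 3 and the other libraries on the scale of relative signal, which is the total signal divided by that library's median peak. A peak at the promoter was seen for 1 of 14 LT-HSC marker genes (Erg), 1 of 7 hepatoblast genes (Krt8), 1 of 6 erythroid genes (Slc4a1), 1 of 5 endothelial genes (Kdr) and 0 of 5 macrophage genes. It was present in 5 libraries at Erg and at Krt8, in KO replicate 2 alone at Slc4a1 and in WT replicate 2 alone at Kdr. These genes show where a repressive mark lies and do not count cells, so the part of other cells in the signal was not tested.

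The name CpG-poor describes the start sites, and most of the regions held CpG-rich DNA as well. Of the 1006 members, 654 (65.0%) contained at least 1 window of 500 bp that reached the limits of 0.55 and 0.65 themselves. The share was 89.7% of the narrow regions at CpG-rich promoters, 23.9% of those inside coding genes and 19.0% of those elsewhere, at median widths of 5070, 5785.5, 4845 and 4657 bp for the 4 classes in this order. The median member with such a stretch had 930 bp covered by it. The centre of the nearest stretch lay within 1000 bp of the coding TSS in 577 of 654 members (88.2%), so most stretches overlapped or adjoined the flanks that the rule had measured. In the other 77 it lay farther away, as at Ncan. The densest stretch lay in an exon of a coding gene in 68.0% of the 654, in an intron in 19.0% and between coding genes in 85 members.

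At the level of genes the same pattern was seen without the use of region borders. Of the 1016 CpG-poor genes at a member, 661 (65.1%) had a qualifying 500 bp window within 5000 bp of their outermost TSS. Of the 11162 CpG-poor genes with no promoter peak in any of the 6 libraries, 3124 did (28.0%). Over all 12664 CpG-poor coding genes the share was 32.2%. These are descriptions over genes and carry no test.

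Relative to the TSS, the highest signal had a similar position in both narrow promoter classes. It lay within 500 bp of a coding TSS in 47.9% of members and in 46.5% of the CpG-rich narrow regions, and downstream of or at the TSS in 62.1% and 63.4%. In the 654 members with a stretch, the maximum was nearer to the centre of a stretch than to the TSS in 459 (70.2%), and its median distance from the nearest centre was 242.5 bp. In the CpG-rich narrow regions the share was 89.5% of 1395 and the median distance 108 bp. Their qualifying windows covered a median of 1440 bp, against 930 bp in members. Longer CpG-rich DNA has more window centres, and so shortens this distance by itself. Many centres were also set against few start sites, so these shares do not show that the signal follows the stretch. The median number of CpG in the 500 bp around the maximum was 3.2 per 100 bp over members and 4.4 over CpG-rich narrow regions. It was 4 per 100 bp in members with a stretch and 2 in those without.

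Replicate 3 of each genotype was not used to choose the regions. These libraries may still share an experiment, so they need not be independent of each other or of the rest. WT replicate 3 had a peak in 140 of 1006 members (13.9%, exact binomial 95% interval 11.8 to 16.2%) and KO replicate 3 in 370 (36.8%, 33.8 to 39.8%). The CpG-rich narrow regions were found again more often, with 26.7% (24.5 to 29.0%) in WT replicate 3 and 60.0% (57.5 to 62.5%) in KO replicate 3. Over all 4609 regions the shares were 19.3% and 41.2%, and in regions that reached the width limit 51.8% and 83.2%. In narrow regions inside coding genes they were 4.84% and 11.2%, and in those elsewhere 3.2% and 9.49%. The members lay below the other narrow promoter class and above the other narrow classes in both libraries. The intervals of both promoter classes, which cover counting error over regions only, did not overlap. Members were also called in all 4 libraries of the rule less often than the CpG-rich narrow regions (55.6% against 64.1%). The part of signal in this difference was not tested. With 1 library of 50 bp reads for each genotype there is no test, and the higher share in KO than in WT goes with the peak numbers of these libraries, 2325 and 1047.

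**Figure D1:**
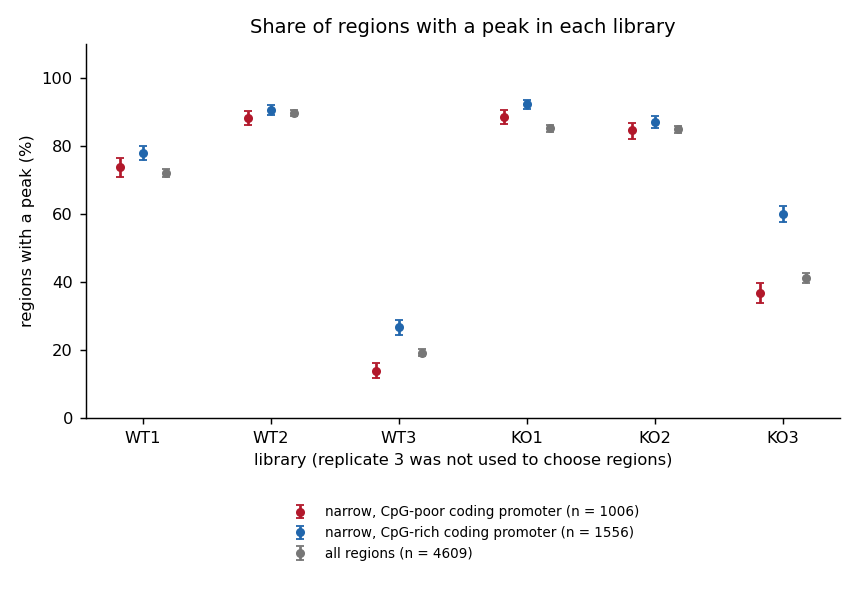
The plot gives, for each of the 6 libraries on the horizontal axis, the share of regions with a peak in percent, with exact binomial 95% intervals, for the 1006 narrow regions at CpG-poor coding promoters, the 1556 at CpG-rich ones and all 4609 regions. In replicates 1 and 2, which chose the regions, the classes lie close together, whereas in replicate 3 the CpG-poor class reaches 13.9% in WT and 36.8% in KO, below the CpG-rich class at 26.7% and 60.0%.

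Members with a CpG-rich stretch were found again more often than those without. WT replicate 3 had a peak in 18.8% (15.9 to 22.0%) of the 654 members with a stretch and in 4.83% (2.84 to 7.62%) of the 352 without. KO replicate 3 had one in 48.5% (44.6 to 52.4%) and in 53 of 352 (15.1%, upper bound 19.2%). Members with a stretch were also wider, with a median of 5317 against 4525.5 bp, and had a higher median relative signal, 1.12 against 0.846. The comparison was therefore repeated among the 559 members with a peak in all 4 libraries of the rule, split into 3 equal groups by relative signal. In the group with the lowest signal, where median relative signals of 0.903 and 0.842 and widths of 4601 and 4650 bp were close, KO replicate 3 had a peak in 42.7% (33.9 to 51.9%) of regions with a stretch and 14.3% (6.75 to 25.4%) of 63 without. The shares were 61.4% and 29.3% in the middle group and 82.7% and 63.3% in the highest group. In WT replicate 3 they were 15.3% and 0%, 19.3% and 9.76%, and 36.5% and 23.3%. The order held in all 3 groups and both libraries, although the intervals overlapped in the middle and highest groups of WT replicate 3 and in the highest group of KO replicate 3. The 0 of 63 allows a share of up to 5.69%.

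**Figure D2:**
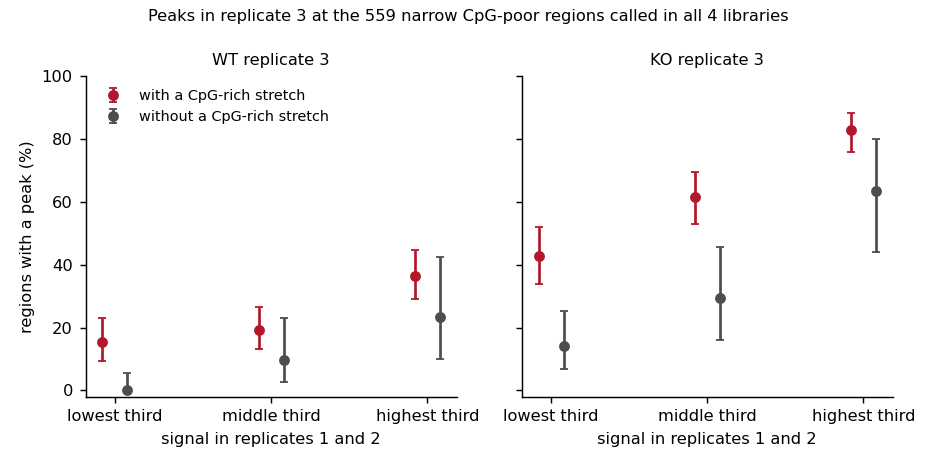
The plot shows the share of regions with a peak in WT replicate 3 (left) and KO replicate 3 (right), in percent with exact binomial 95% intervals, for the 559 members with a peak in all 4 libraries, in 3 groups of rising signal in replicates 1 and 2. Points for regions with a CpG-rich stretch lie above those without in each group, as in the lowest group of KO replicate 3 with 42.7% against 14.3%.

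The length of the CpG-rich DNA went with the same measure. The 654 members were split into 3 equal groups by the number of bases covered by qualifying windows, from 500 to 810 bp, 820 to 1060 bp and 1060 to 5000 bp. KO replicate 3 had a peak in 38.5%, 35.3% and 71.6% of the 218 regions in each, and WT replicate 3 in 32, 25 and 66 of them. The intervals of both shorter groups overlapped, and that of the longest lay above them in KO replicate 3 (65.1 to 77.4%, against upper bounds of 45.3% and 42.1%). That group also had the highest median relative signal (1.41, against 0.998 and 0.986) and width (6364 bp, against 4865 and 4903 bp). The part of signal and width in this difference was not tested.

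The 10 members with the highest relative signal among those called in all 4 libraries had between 2.83 (Fbxo2 and Fbxo44) and 3.88 (Ncan) times the signal of the median peak. At Ncan (chromosome 8, 70109721 to 70121214) WT replicates 1 to 3 had total signals of 54650, 39926 and 4943, and KO replicates 1 to 3 had 59778, 47814 and 23553. The genotypes overlapped in replicates 1 and 2, and in relative signal KO replicate 3 (2.27) was lower than the rest (3.16 to 4.42), and WT replicate 3 was lower still. Hapln4, which encodes a link protein that binds such proteoglycans, lies on the same chromosome and had 32666, 46723 and 4926 in WT and 42698, 40091 and 17144 in KO. At Ndufa4l2 and Stac3 the values were 31098, 51697 and 3569 in WT and 54889, 50615 and 42771 in KO, and in relative signal KO replicate 3 (4.11) was the highest of the 6 libraries, beside 4.09 in WT replicate 2.

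C1qtnf4, a secreted protein of the C1q and TNF family, had 35315, 31779 and 3498 in WT and 52026, 39390 and 18685 in KO. Wnt3, a ligand of the Wnt pathway that acts in axis formation, had 26225, 47715 and 4461 in WT and 40515, 38487 and 8738 in KO. At Fbxo2 and Fbxo44, which encode subunits of ubiquitin ligases, the values were 35364, 36794 and 9104 in WT and 41767, 32606 and 28534 in KO. Each of these regions had a peak in all 6 libraries, and in replicates 1 and 2 the genotypes overlapped at Wnt3 and at Fbxo2 and Fbxo44. At C1qtnf4 both KO values lay above both WT values.

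Nfasc, which encodes the cell adhesion protein neurofascin of axons, had no peak in KO replicate 3, with 33708, 38579 and 5436 in WT and 40157 and 38190 in KO replicates 1 and 2. Nhlh2, a transcription factor of neurons, had no peak in WT replicate 3, and its other values were 31982 and 36552 in WT and 53387, 30363 and 9238 in KO. Matn4 and Rbpjl, a matrix protein and a transcription factor of the pancreas, shared a region with 41032 and 27221 in WT and 39953, 47099 and 10896 in KO. Gm20479 had 30740 and 48310 in WT and 49960, 39108 and 18858 in KO, and its maximum lay 11813 bp from its TSS, in an exon of Sptbn4, the largest distance of any member. The 3 strongest members without a stretch had no peak in WT replicate 3, and Grip2 alone of them had one in KO replicate 3, with a total signal of 7506. In replicates 1 and 2, Pou5f1 (chromosome 17, 35500360 to 35510160) had 27084 and 44554 in WT and 44292 and 32488 in KO, and the genotypes overlapped. They did not overlap at Grip2, with 22462 and 33685 in WT and 43292 and 42265 in KO, or at Cd2, with 32027 and 47805 in WT and 27740 and 27256 in KO. KO was higher at Grip2 and lower at Cd2, with limma adjusted p of 0.996 at both.

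**Figure D3:**
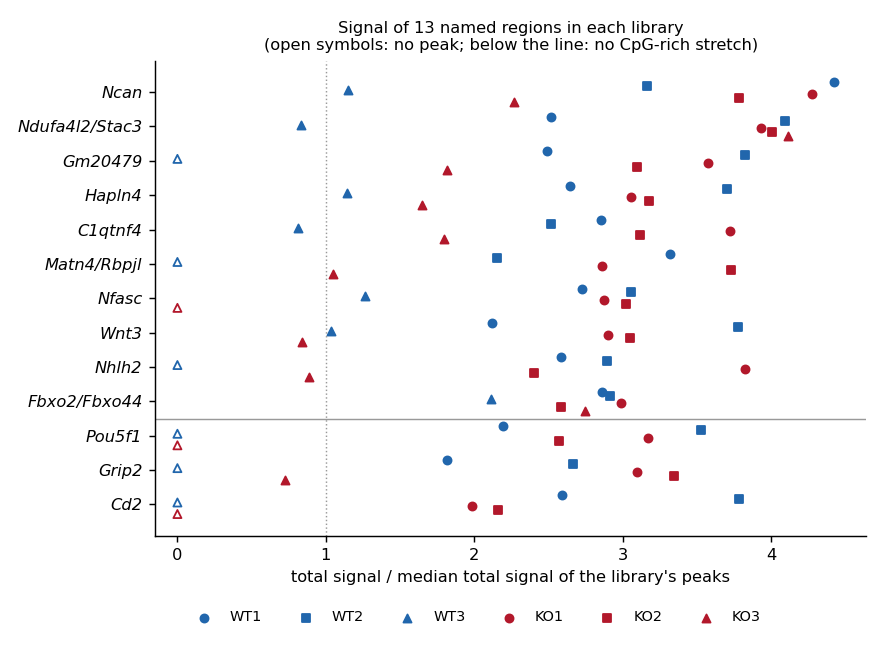
The plot gives the relative signal (total signal divided by the median of all peaks of the library) of the 10 members with the highest mean and, below the line, the 3 strongest members without a CpG-rich stretch, with 1 symbol for each library and open symbols at 0 where no peak was called. WT and KO symbols of replicates 1 and 2 are interleaved for most regions, and triangles (replicate 3) lie to the left, except for KO replicate 3 at Ndufa4l2/Stac3 and Fbxo2/Fbxo44.

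In all, 97 members (9.64%) had a peak in each of the 6 libraries, against 323 of 1556 CpG-rich narrow regions (20.8%) and 717 of all 4609 (15.6%). The share was 2.18% in narrow regions inside coding genes, 1.71% in those elsewhere and 50.5% in regions that reached the width limit. By signal, the others that led this set were Slc17a7 (relative signal 2.77), the vesicular glutamate transporter VGLUT1, Rgl3 (2.73), a regulator of Ral GTPases, Esyt3 (2.67), an extended synaptotagmin, Tcea3 (2.66), a transcription elongation factor, AI464131 (2.61) and the pair Avp and Oxt (2.56). Avp and Oxt encode the hypothalamic hormones vasopressin and oxytocin and lie next to each other. Their region had 32983, 27500 and 4598 in WT and 45027, 28924 and 22947 in KO.

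Which kinds of genes lay at these regions was described with 17 lists of gene symbols. Over all 12664 CpG-poor coding genes, 8.02% lay at a member. The share was 37.4% for ion channels and neurotransmitter receptors (58 of 155), 28.9% for the extracellular matrix and its proteases (35 of 121) and 25% for homeobox, Fox, Sox, T-box and GATA factors (16 of 64). It was 22.5% for other G protein-coupled receptors (34 of 151), 22.2% for retinoic acid and dormancy genes (6 of 27), 19.0% for red cell genes (4 of 21), 16.4% for solute carriers (35 of 214) and 13.6% for muscle genes (6 of 44). Near the background were endothelial genes (7.14%, 2 of 28), keratins and skin barrier genes (6.88%, 11 of 160) and HSC identity genes (5.88%, 1 of 17). Little lower were cytokines, chemokines and their receptors (5.52%, 10 of 181) and lymphocyte genes (5.33%, 4 of 75). Liver secreted proteins and cytochromes P450 (2.29%, 3 of 131) and myeloid genes (2.06%, 2 of 97) lay below these. At the far end stood the chemosensory receptors with 4 of 1516 (0.264%), and the NF-κB pathway had 0 of 6. Several lists are short, and the shares are counts without a test.

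**Figure D4:**
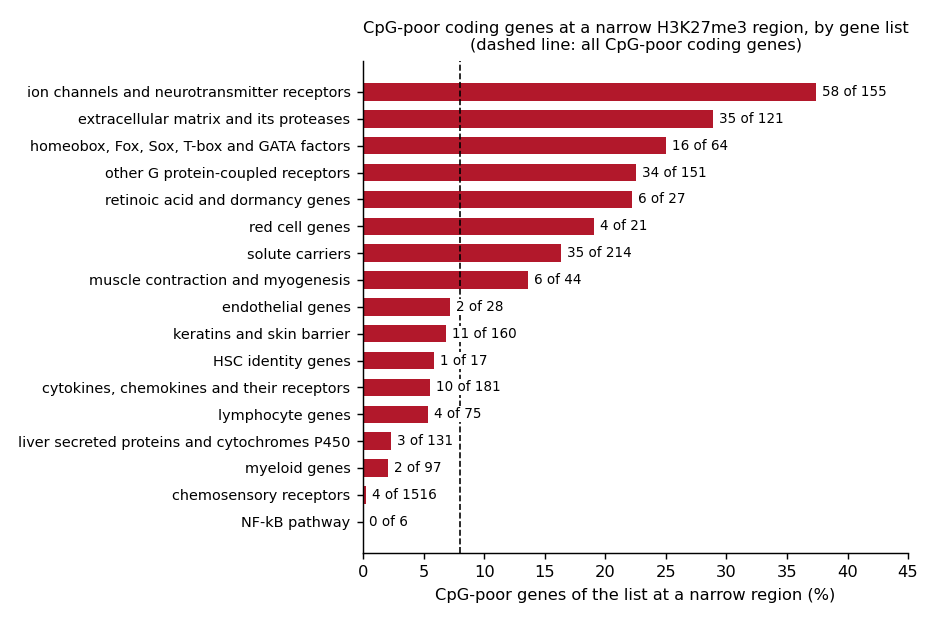
Bars give the share of CpG-poor coding genes of each of 17 lists that lie at a narrow CpG-poor region, in percent from 0, with the counts beside them and a dashed line at the 8.02% of all CpG-poor coding genes. Ion channels and neurotransmitter receptors reach 37.4%, and chemosensory receptors 0.264%.

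Among the ion channels and receptors, Kcnh5, a voltage-gated potassium channel, and Htr1b, a serotonin receptor, had peaks in all 6 libraries. Htr1b had 12235, 17373 and 6004 in WT and 11619, 14544 and 15197 in KO, and in relative signal KO replicate 3 (1.46) was the highest library and KO replicate 1 (0.832) the lowest. Kcnip1, which modulates potassium channels, followed with 5 libraries and a relative signal of 2.35. Of the 58 genes of this list at a member, 35 were at a region called in all 4 libraries of the rule. Of all 1006 members, 559 (55.6%) were called in all 4. Ordered by the number of libraries and then by signal, the matrix genes began with Ncan and Hapln4, then Adam33 and Mmp9, a pair of metalloproteases, all with peaks in 6 libraries. Mmp9 had 13584, 10680 and 4190 in WT and 25646, 18089 and 14508 in KO. Adam33 had no CpG-rich stretch in its region and still had a peak in every library. Of the 35 matrix genes, 7 had peaks in all 6 libraries, against 3 of the 58 channel genes and 97 of all 1006 members (9.64%).

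Of the transcription factors, Nkx1-2, Nkx2-9, Pitx3 and Sox10 had peaks in all 6 libraries. They act in the early nervous system, in ventral patterning, in dopamine neurons and eye, and in neural crest. Nkx1-2 had 23621, 26604 and 6424 in WT and 47102, 37831 and 21036 in KO, and Nkx2-9 had 34991, 32228 and 3390 in WT and 33006, 30013 and 16743 in KO. Sox10 had 6739, 43974 and 5871 in WT and 22474, 35608 and 12743 in KO, and both KO values of replicates 1 and 2 lay between the WT values of these replicates. Members of these families that start from CpG-rich DNA stood elsewhere: 95 of 147 lay at a region that reached the width limit. The share of all CpG-rich coding genes at such regions was not counted here.

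The G protein-coupled receptors with peaks in all 6 libraries included Galr1 (galanin) and Adrb3 (the β3-adrenergic receptor of fat), and Adra1a (an α1-adrenergic receptor) had 5. Of the solute carriers, Slc17a7 and Slc15a1, an intestinal peptide transporter, had all 6, and Slc38a3 and Slc30a10 had 5. The list of retinoic acid and dormancy genes was put together here with genes that the study had examined in these cells, so its share is not independent evidence. Of them, Crabp1, a binding protein, and Rarg, a retinoic acid receptor, had peaks in 5 libraries, and Rxrg and Rdh8 in 4. Rarg had 17243 and 22483 in WT and 19445, 23935 and 7695 in KO, without a peak in WT replicate 3. Of the 10 cytokine genes, Il25 and Il11 had peaks in all 6 libraries and Tnfrsf12a and Tnfrsf8 in 5, and Tnfrsf12a had a higher relative signal (1.93) than Il25 (1.86) and Il11 (1.58).

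Among genes of blood, liver and other tissues the counts were small. Erg, a transcription factor that maintains HSCs, was the only HSC identity gene of 17, with 16203 and 13779 in WT and 27041, 10866 and 8565 in KO, and the maximum was 1204 bp from its nearest annotated start. The lymphocyte genes were Ebf1 (6 libraries), which directs B cell fate, Gata3 (5), which directs T cell fate, Cd2 (4) and Cd3g (2). The myeloid genes were Cd14 (4) and Ctsg (2), and the red cell genes were Add2 and Trim10 (4 each), Slc4a1 and Hba-a1 (2 each). The maximum lay far from the nearest annotated start at Gata3 (7030 bp), Ebf1 (4689 bp), Hba-a1 (3640 bp) and Slc4a1 (2643 bp). At the other lymphocyte, myeloid and red cell genes named here it lay 174 bp (Trim10) to 1072 bp (Cd3g) away. The endothelial genes were Cldn5 (5), a tight junction protein, and Ephb4 (2). The liver genes were Cyp1a1 and Cyp2s1 (3 each) and Cyp4f39 (2), and none of these had a peak in all 4 libraries of the rule. Muscle genes included Myl7 (5), Ryr1 and Myocd (4 each) and Cnn1 (3), and keratins included Krt8 (5), Krt19 and Lor (4 each) and Krt71 (3). At Ryr1 the maximum lay 6505 bp from the nearest annotated start.

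The chemosensory exception was Olfr94, an odorant receptor gene on chromosome 17 with peaks in all 6 libraries. It had 16042, 15905 and 4343 in WT and 25583, 12969 and 8546 in KO, and its region held a CpG-rich stretch. Olfr95, its neighbour, had peaks in 3 libraries, as did Olfr222, and Olfr524 had 2. Olfactory receptors share much of their sequence, and reads that map to several places had been removed, so a lack of peaks at such genes can also be a lack of mappable reads. That was not tested.

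Within each library, the signal at members was set beside that at the CpG-rich narrow regions. The peaks of replicates 1 and 2 chose and bounded both classes, so these values are a description and carry no test. The median length covered by peaks was lower at members in 6 of 6 libraries, with a mean log2 difference of -0.14 ± 0.099 (SD, n = 6), or 0.909 times the length. The median total signal was lower in 6 of 6, by -0.17 ± 0.074 on the log2 scale, or 0.889 times. The differences came mainly from the 4 libraries that had chosen the regions, in which the length differed by -0.16 to -0.23. In the 2 libraries not used by the rule it differed by -0.0091 (WT replicate 3, medians of 1741.5 against 1752.5 bp) and -0.018 (KO replicate 3, 2748 against 2782.5 bp), and total signal by -0.074 and -0.078. The median of the highest coverage was equal in 5 libraries and lower in KO replicate 3, with 9 against 10 fragments. A median of small whole numbers moves little, and the mean log2 of the highest coverage was lower at members in 6 of 6 libraries, by a mean of -0.035. Total signal includes length.

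The main question of the study design was whether the loss of IκBα changed the mark. At the 2557 regions called in all 4 libraries of replicates 1 and 2, the log2 of total signal, from which the library median had been subtracted, was compared with limma. Of all regions tested, 0% passed a Benjamini-Hochberg adjusted p of 0.05, and so 0 of the 559 members among them did. Before adjustment, p was under 0.05 for 12 members higher in KO (2.15%, against 1.76% of all regions) and 17 lower in KO (3.04%, against 2.89%), so the members were close to the background in both directions. The balance of directions depended on the measure, with 28 members higher and 7 lower by maximum signal (109 and 22 of all regions) and 20 higher and 11 lower by mean signal per covered base (56 and 65 of all). Without WT replicate 1, 23 members were higher and 10 lower (85 and 59 of all regions), and without KO replicate 2, 4 were higher and 15 lower (26 and 80 of all). The median log2 difference, KO minus WT, over the 559 members was 0.0094, with a median SE of 0.35 per region, and over all regions -0.0085. The median centred signal of the members came to -0.26 and -0.38 for the WT and -0.30 and -0.29 for the KO libraries, so the genotypes overlapped.

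**Figure D5:**
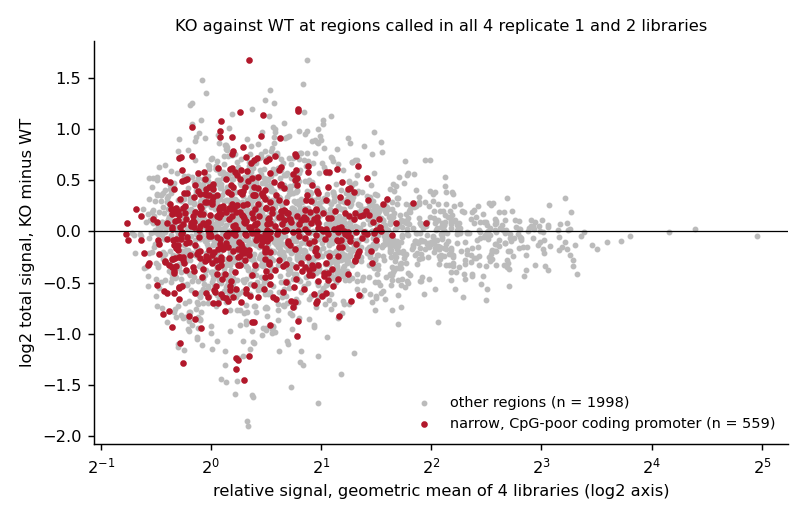
The plot gives the log2 difference in total signal, KO minus WT, against the relative signal (log2 axis) for the 2557 regions called in all 4 libraries of replicates 1 and 2, with the 559 members in red. The red points spread around 0 among the others (median 0.0094), and 0 of them passed the adjusted threshold.

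The members with the smallest unadjusted p in each direction were looked at in each library. Rnf39, a RING finger gene in the major histocompatibility complex, had 8591 and 9054 in WT and 32388 and 28608 in KO, a log2 difference of 1.67 ± 0.32 (SE; limma adjusted p = 0.72). Its groups did not overlap in replicates 1 and 2, and neither replicate 3 library had a peak. Col19a1, a collagen, had 10520, 9451 and 3447 in WT and 24932, 23381 and 10651 in KO, and Ptx3, a soluble pattern recognition protein, had 9010, 9081 and 3379 in WT and 19657, 21845 and 8458 in KO. In relative signal, replicate 3 had 0.801 in WT and 1.02 in KO at Col19a1, and 0.785 and 0.813 at Ptx3. Baiap3 and Frem2 had log2 differences of 1.13 ± 0.35 and 0.99 ± 0.32, and the adjusted p of Col19a1, Ptx3, Baiap3 and Frem2 was 0.99.

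On the other side, Stmn4, which encodes a stathmin of neurons, had 15851 and 16714 in WT and 7134 and 7309 in KO, a log2 difference of -1.29 ± 0.33 (SE; limma adjusted p = 0.98). Ttyh1, a chloride channel gene of the brain, had 23910 and 22264 in WT and 11520 and 8414 in KO (-1.34 ± 0.34). Gm5294 had 19986, 28770 and 4611 in WT and 11952 and 10402 in KO, without a peak in KO replicate 3 (-1.22 ± 0.31). The region of Col5a3 and Rdh8 (-1.26 ± 0.36) and that of Col16a1 (-1.46 ± 0.43) completed the set, with an adjusted p of 0.99 each. These 10 regions were picked for their small p, which all but fixes that the genotypes do not overlap in replicates 1 and 2, and none passed the adjustment.

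Peaks in both replicates of 1 genotype and neither of the other were then counted. There were 19 members with peaks in both WT and neither KO library (1.89%, against 2.45% of all 4609 regions) and 48 of the reverse (4.77%, against 4.27%). Peak presence in these libraries chose the members, so the counts are a description, and both shares were near the background. The regions were weak, with a median relative signal of 0.691 for those marked in WT and 0.705 for those marked in KO, against 1.27 for members called in all 4. In replicate 3, the 19 regions marked in WT had a peak in 0 of WT and 1 of KO, and the 48 marked in KO had 1 in WT and 6 in KO (12.5%). Over all regions the counts were 2 and 5 of 113 marked in WT, and 5 and 18 (9.14%) of 197 marked in KO. For comparison, 60 members (5.96%, against 5.97% of all regions) had peaks in WT replicate 2 and KO replicate 1 alone of the 4, and 45 (4.47%, against 7.51%) in WT replicate 2 and KO replicate 2. There were 20 (1.99%) for WT replicate 1 with KO replicate 1 and 11 (1.09%) for WT replicate 1 with KO replicate 2, against 1.65% of all regions for each.

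By signal, the members marked in WT were led by Gng8 (14766 and 11959), a G protein subunit, Npffr2 (10784 and 15637), a neuropeptide receptor, Crb2 (10746 and 15650), a polarity protein, and Chrnb2 (12325 and 12805), a subunit of the nicotinic acetylcholine receptor. Zbp1 (9187 and 11177), a sensor of nucleic acids in innate immunity, and Sec14l2 (7413 and 13300) followed. Those marked in KO were led by Pdzrn4 (12857 and 18770), Grhl3 (14394 and 13396), a transcription factor of epidermis, and Slc45a1 (11548 and 15616), a sugar transporter of the brain. Tsks (16865 and 10619), a substrate of testis kinases, Dysf (12768 and 13652), the membrane repair protein dysferlin, and Pcdh11x (12959 and 13243), a protocadherin on chromosome X, followed. Each of these 12 regions lacked a peak in both replicate 3 libraries.

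Chromosome X held 18 members, which were unevenly called among the libraries. Peaks were present at 6, 11 and 0 of them in WT replicates 1 to 3 and at 17, 13 and 1 in KO replicates 1 to 3. KO replicate 1 stood highest and WT replicate 1 lowest of the 4 libraries of the rule, with 94.4% and 33.3%, against 88.6% and 74.6% of the 988 members on autosomes. The same order was seen over all 33 regions on chromosome X, of which KO replicate 1 had 32, KO replicate 2 had 21, WT replicate 2 had 17 and WT replicate 1 had 14. Of the 48 members marked in KO, 4 lay on chromosome X (8.33%, against 7 of 197 or 3.55% of all regions marked in KO), and of the 19 marked in WT 0 did (0 of 113 of all). Among the members on chromosome X, WT replicate 2 (61.1%) and KO replicate 2 (72.2%) lay closer to each other than to the other library of their genotype. Whether the sex of the embryos has a part in this was not tested.

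Motifs were searched in the RefSeq promoters, from 250 bases before to 50 after the TSS, on both strands, for 731 of the 1016 genes at a member and 9232 of the 12664 CpG-poor genes. The TATA box TATAAA was found in 10.9% of promoters at members, against 18.8% of all CpG-poor promoters and 12.9% of all 16538 coding promoters matched. The GATA motif AGATAA was found in 63 of 731, against 1289 of 9232 and 1605 of 16538 (8.62% of members and 9.70% of all). The CCAAT box was found in 35.7%, against 40.3% and 38.8%, and the nuclear receptor motif AGGTCA in 15.7%, against 17.5% and 14.1%. The promoters at members held a median of 11 CpG in 300 bases, against 5 for CpG-poor and 14 for all promoters. Matches of this kind can depend on base composition, which was not tested, and they show letters and not sites that a factor bound.

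The limits of the rule cut through a continuum. Nhlh2 (11947 bp) and Kif19a (11853 bp) lay just under the width limit, and their relative signal was 2.88 and 1.95. Just over it, at promoters of the same composition, lay Nr2f1 (12002 bp), Rax (12067 bp) and Slc7a10 (12206 bp) with 3.36, 3.04 and 3.14, and there were 98 such regions in all. On the CpG side, Tent5b, with a GC content of 63.2%, was among the members nearest the limits, and its observed/expected ratio lay just under its limit. A TSS within 10% of both limits was found in 319 members (31.7%), and 677 (67.3%) had a TSS that passed the GC limit and missed the ratio alone.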

How the data were processed

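H3K27me3 CUT&Tag peaks of 6 libraries of LT-HSCs (3 IκBα WT, 3 IκBα KO) were analysed, and 4 further samples of the series, of IκBα itself, were not analysed here. Per the study's methods and the submitters' processing notes, the authors trimmed reads with Trim Galore 0.6.6, aligned them with Bowtie2 2.4.4 to GRCm38, removed multi-mapped, low-quality and duplicate reads, and ran the peak caller SEACR 1.3 on every library by itself and without a control, after which blacklisted regions were removed. The deposited values are the total signal and the maximum signal of each peak, as whole numbers of fragment coverage that the authors did not scale to library size. A region without a peak has no value and is given as 0 or left out, and the read numbers that the study gives for each library were not used here.

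Coding genes were taken from GENCODE M21 and promoter sequences from RefSeq (GRCm38.p6). Relative signal is the total divided by the library's median peak, and for a region the geometric mean over the libraries of replicates 1 and 2 with a peak. CpG-rich stretches were windows of 500 bp, moved in steps of 10 bp, that reached the limits used for the TSS. KO and WT were compared with limma 3.58.1 (R 4.3.3) on centred log2 total signal, with Benjamini-Hochberg adjustment over 2557 regions. Members were compared with CpG-rich narrow regions within each library. A sign-flip test over 6 libraries had been planned for this, and its p is not given, since 4 of these libraries had chosen the regions and same-numbered libraries may not be independent. Shares have exact Clopper-Pearson 95% intervals, which cover counting error only. The tests were checked on simulated data. Other calculations used Python 3.11.15 with scipy 1.17.1.

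Named regions were the 10 members of highest signal, up to 12 with peaks in all 6 libraries, the 5 of smallest limma p in each direction, the 6 strongest marked in 1 genotype, up to 4 per gene list, those next to the limits, and the 3 strongest with a stretch away from the TSS or without one. Some regions and genes covered by this rule are not reported here. The regions, gene lists and rules were chosen with earlier results of these data known. Deviations of same-numbered WT and KO libraries from their group means correlated over 717 regions with r of 0.267, 0.313 and 0.466 for replicates 1 to 3. The numbers were taken to pair the libraries in the replicate block only, and the main fit did not use them. Deviations from a group mean are tied to each other, so a shift shared by both replicate 3 libraries also raises r among the others. The evidence is weak for replicates 1 and 2, since WT replicate 2 and KO replicate 1 had r of 0.268, and WT and KO replicate 1 had 0.0945 over the 2557 regions. Alternatives covered the joining and strength of peaks, promoter and CpG limits, scaling, measures, a replicate block and leaving out each library.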

Additional observations from a re-analysis of the deposited data

How the results depend on the processing

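No region passed the adjusted limma threshold between KO and WT under any alternative run, and the replicate block, which rests on the pairing of the libraries, left 0 members past it (13 higher and 17 lower in KO before adjustment, with 63 and 88 of all 2557 regions). The median log2 difference of the members was 0.085 with maximum signal, -0.12 with all 6 libraries, with or without the block, and -0.082 to 0.063 with a library left out. The number of members was 535 when peaks had to exceed their library's median, and 887 to 974 with a library left out. In the main setting 19 members were marked in WT alone and 48 in KO alone. With peaks above the median the counts were 14 and 19, and when peaks had to cover 50% of the region they were 36 and 66. The shares over all regions were not counted in these settings. The share found again in KO replicate 3 was 33.1% with CpG limits of 0.50 and 0.60, and among members with all 4 libraries the shares were 20.6% in WT replicate 3 and 55.6% in KO replicate 3. Against CpG-rich narrow regions, replicates 1 and 2 alone gave log2 differences of -0.20 in length, -0.22 in total signal and 0 in highest coverage. With a library left out the ranges were -0.16 to -0.12 in length, -0.19 to -0.16 in total signal and -0.030 to 0 in highest coverage. Among regions with all 4 libraries the length differed by -0.13. Means in place of medians, chosen after seeing the data, gave -0.035 in highest coverage. The causes were not tested. Low coverage, with a median maximum of 6 to 10 fragments, limits what can be seen at single regions.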
